A study of Mus musculus with 21 samples.

Results

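The genes described here are 8 genes of antigen presentation by MHC class II, chosen by symbol: Cd74, H2-Oa, H2-DMa, H2-DMb1, H2-Aa, H2-Ab1, H2-Eb1 and Ciita. The rule names the genes and uses no measured value. Of the 8 genes, 6 were analysed, among 16782 genes in the 3 experiments together. Cd74, H2-Oa, H2-DMa and H2-DMb1 were analysed in all 3 experiments, and H2-Aa and H2-Eb1 in the Kdm5b overexpression alone. H2-Ab1 and Ciita were not analysed here. In GENCODE M21 (GRCm38), Cd74 (ENSMUSG00000024610.15) lies at chr18:60803848-60812652 on the plus strand, and the others analysed lie together on chromosome 17. These are H2-Oa (ENSMUSG00000024334.9, chr17:34092340-34095234, plus), H2-DMa (ENSMUSG00000037649.10, chr17:34119541-34139101, plus), H2-DMb1 (ENSMUSG00000079547.4, chr17:34153072-34160230, plus), H2-Aa (ENSMUSG00000036594.15, chr17:34282744-34287823, minus) and H2-Eb1 (ENSMUSG00000060586.11, chr17:34305867-34316674, plus). All are protein-coding.

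The study sequenced RNA of acute myeloid leukaemia lines of the mouse, grown with stem cell factor, in 21 libraries. NUP98-NSD1 cells, which carry a flag-tagged fusion of NUP98 and NSD1, were treated for 4 days with 3 µM UNC1999, 3 µM JQEZ5 or DMSO (3 libraries each). UNC1999 and JQEZ5 are inhibitors of PRC2, the complex in which Ezh2 methylates lysine 27 of histone H3. NUP98-NSD1 cells also received a puromycin-selected lentivirus with an shRNA against Kdm5b (shKdm5b) or the empty vector shEV (3 libraries each). MLL-AF9 cells, which carry a flag-tagged MLL-AF9 fusion, received a retrovirus with wild-type Kdm5b (WT), its demethylase-dead H499A mutant or the empty vector EV (2 libraries each). Kdm5b removes methyl groups from lysine 4 of histone H3. All groups of an experiment share the fusion, and whether the replicates of a group were separate cultures is not given, so p-values measure only the spread between libraries, which may be technical.

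MHC class II molecules are pairs of an alpha and a beta chain that carry peptides from the endosome to the cell surface, where CD4+ T cells read them. Their synthesis starts with the invariant chain, encoded by Cd74, which fills the groove and guides the pair to the endosome. There cathepsins cut the invariant chain down to a short remnant, H2-DM exchanges that remnant for a peptide, and H2-O holds H2-DM back. H2-Aa and H2-Ab1 encode the chains of the I-A molecule and H2-Eb1 the beta chain of I-E. Ciita is the coactivator that switches the whole set on, through factors bound to a conserved X box and Y box in the promoters. B cells, dendritic cells and macrophages exposed to interferon gamma are the usual sources of these transcripts, while immature myeloid cells hold less of them.

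Stretches of the promoters are shown because the class II genes are known for this pair of boxes. RefSeq windows (GRCm38.p6, 250 bases before to 50 after the gene start) were matched for 5 of the 8 genes, H2-Oa, H2-DMa, H2-DMb1, H2-Aa and H2-Eb1. A search for GNAAC, as the start of an X box, followed after 20 to 30 bases by TGATTGG, as the Y box, found the pair in 4 of these 5 genes on the gene's own strand. This spelling was chosen after looking at the windows. On the strand of the gene it occurs in 45 of 32851 windows of 300 bases (0.137%), on either strand in 106 (0.323%), and TGATTGG alone in 2568 (7.82%). The stretches below are printed 5′ to 3′ on the strand of the gene, with both motifs in capitals, to show how alike the spacing is. The H2-Oa stretch lies at chr17:34092291-34092352 on the plus strand, that of H2-DMb1 at chr17:34153085-34153146 (plus), that of H2-Aa at chr17:34287855-34287916 (minus) and that of H2-Eb1 at chr17:34305764-34305824 (plus).
H2-Oa: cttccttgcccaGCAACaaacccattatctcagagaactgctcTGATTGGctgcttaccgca
H2-DMb1: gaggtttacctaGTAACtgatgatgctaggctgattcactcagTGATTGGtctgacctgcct
H2-Aa: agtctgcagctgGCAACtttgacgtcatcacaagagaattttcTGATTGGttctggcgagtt
H2-Eb1: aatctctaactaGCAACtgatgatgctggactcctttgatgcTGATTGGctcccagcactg
The gap between the motifs was 26 bases in H2-Oa, H2-DMb1 and H2-Aa and 25 bases in H2-Eb1. The end of TGATTGG lay 38 bases before the RefSeq start of H2-Oa, 43 before that of H2-Aa, 54 before that of H2-Eb1 and 56 before that of H2-DMb1. These are the starts on which the windows were placed, and for H2-Oa and H2-DMb1 they lie downstream of the GENCODE starts given above. Neither of the 2 windows of H2-DMa, at chr17:34122582-34122881 and chr17:34125268-34125567, held the pair or TGATTGG alone. Both lie downstream of the GENCODE start of H2-DMa and do not cover it, so that start was not searched. A match or its absence describes the letters of these windows and nothing more.

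The inhibitor libraries held 12.8 to 18.9 M reads each, the knockdown libraries 21.3 to 34.8 M and the overexpression libraries 17.3 to 20 M. Levels within an experiment are given as normalised counts, with the SD between libraries. Changes are log2 differences with their SE, fitted with limma on the deposited variance-stabilised values, where genes of low count are compressed, so the ratio of normalised counts is given beside them. A gene counts as called when its p-value is under 0.05 after Benjamini-Hochberg adjustment over the genes tested in its experiment. Kdm5b itself was at 28.69 ± 5.44 with shKdm5b and 74.48 ± 17.8 with shEV (n = 3 each, 0.385 times). It was 11.6 times the EV level with WT and 2.42 times with H499A, 1.46 times the DMSO level with UNC1999 and 1.08 times with JQEZ5.

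Over the 8 groups, Cd74 had the widest range of the class II genes past the filter on low values. In reads per M reads of the library (CPM), which put experiments that were normalised separately side by side as a description, Cd74 averaged 37.16 with UNC1999, 34.13 with JQEZ5 and 60.86 with DMSO, 3.485 with shKdm5b and 2.748 with shEV, and 35.82 with WT, 72.94 with H499A and 13.95 with EV (SD at most 1.78). From the highest level down, the groups ran H499A, DMSO, UNC1999, WT, JQEZ5, EV, shKdm5b and shEV, and among neighbours in that order only the libraries of WT and JQEZ5 and those of shKdm5b and shEV overlapped. H2-Oa averaged 17.12 CPM with UNC1999, 15.12 with JQEZ5 and 24.9 with DMSO, 3.382 with shKdm5b and 1.952 with shEV, and 12.27 with WT, 10.87 with H499A and 10.37 with EV (SD at most 1.48). Its order ran DMSO, UNC1999, JQEZ5, WT, H499A, EV, shKdm5b and shEV, and among neighbours the libraries of UNC1999 and JQEZ5 overlapped, as did those of H499A and EV. H2-DMa averaged 12.52 CPM with UNC1999, 10.38 with JQEZ5 and 11.2 with DMSO, 2.71 with shKdm5b and 1.534 with shEV, and 20.95 with WT, 13.09 with H499A and 18.08 with EV (SD at most 1.74). Its order ran WT, EV, H499A, UNC1999, DMSO, JQEZ5, shKdm5b and shEV, and H499A overlapped UNC1999, UNC1999 overlapped DMSO, and DMSO overlapped JQEZ5. The same group was lowest for all 3 genes, and a different group was highest for each.

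The rest of the class II genes were near the limit of what this depth shows. H2-DMb1 gave 1 to 12 reads per library in every group, H2-Aa 1 to 19 and H2-Eb1 0 to 15. The alpha and beta chains that present peptide were thus at a few reads per library in the one experiment in which they were analysed, beside 243 to 1434 reads of the invariant chain. Per kilobase of exon in GENCODE M21, Cd74 averaged 43.44 CPM with H499A, 21.34 with WT and 8.31 with EV, against 0.187, 0.02964 and 0.1517 for H2-Aa in the same groups. Counting intervals given for such genes cover counting error only, since reads are not independent molecules.

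**Figure D1:**
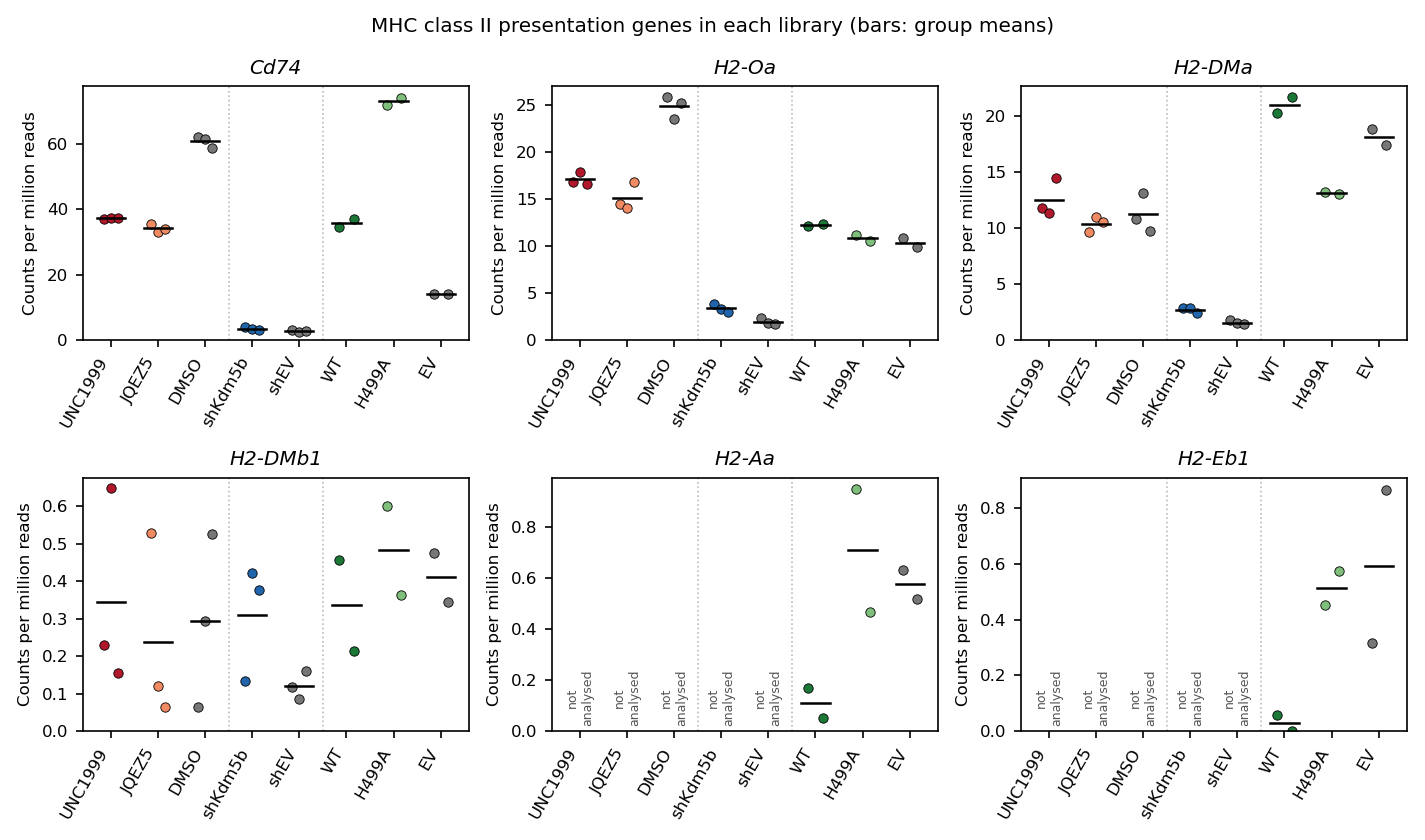
CPM (y axis, linear, from 0) of 6 class II genes in each library; points are libraries, bars are group means, and dotted lines separate the inhibitor, knockdown and overexpression experiments. Cd74 averages 72.94 CPM with H499A and 13.95 with EV, and H2-DMb1, H2-Aa and H2-Eb1 stay below 1 CPM in every library.

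The vehicle and vector controls of NUP98-NSD1 cells differed in class II level. Cd74 was at 60.86 ± 1.78 CPM with DMSO and 2.748 ± 0.399 with shEV, a ratio of 22.1, and the ratio of DMSO to shEV was 12.8 for H2-Oa and 7.3 for H2-DMa. H2-DMb2 differed by a ratio of 3.38 and Kdm5b by 15.9, while Ezh2 had a ratio of 0.614. Libraries were made with 1 of 2 kits, which kit made which library is not given, and the vector, selection and treatment differ too, so culture and processing cannot be told apart here and no test was made. The balance between class II genes shifted as well. Per kilobase of exon, Cd74 was 1.95 to 2.19 times H2-Oa in DMSO libraries and 1.09 to 1.3 times in shEV libraries, 9.64 to 12.4 times H2-DMa in DMSO libraries and 3.28 to 4.01 times in shEV libraries.

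The question for the inhibitors was how class II transcripts respond when PRC2 is inhibited. Cd74 and H2-Oa fell with both UNC1999 and JQEZ5, H2-DMa was not called with either, and H2-DMb1 was at 1 to 10 reads per library. In bulk RNA, fewer cells that hold a transcript and less of it per cell cannot be told apart, here and below. The compounds share their DMSO libraries, so their changes are given side by side.

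Cd74 stood at 588.9, 588.5 and 583.7 normalised counts in UNC1999 libraries, at 551.3, 508.8 and 524.5 in JQEZ5 libraries, and at 939.5, 930.9 and 895.3 in DMSO libraries. Every inhibitor library was below every DMSO library. Relative to DMSO, Cd74 fell by 36.3% with UNC1999 (log2 change -0.51 ± 0.04; limma adjusted p = 4.02e-08) and by 42.7% with JQEZ5 (-0.62 ± 0.04; limma adjusted p = 1.41e-08). H2-Oa, the alpha chain of the H2-O modulator, had 268.2, 282 and 261.2 normalised counts with UNC1999, 224.4, 217.3 and 260.3 with JQEZ5, and 390.8, 356.3 and 384.7 with DMSO. Its inhibitor libraries too were all below its DMSO libraries. It fell by 28.3% with UNC1999 (log2 change -0.30 ± 0.05; limma adjusted p = 0.00019) and by 38% with JQEZ5 (-0.43 ± 0.05; limma adjusted p = 1.97e-05). Exons of H2-Oa share 321 of their 1407 bases with the antisense gene BC051537, and whether reads were counted by strand is not given in the sources used here.

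H2-DMa, the alpha chain of the peptide exchanger, had 187.4, 178.8 and 226.8 normalised counts with UNC1999, 149.9, 169 and 162.9 with JQEZ5, and 162.8, 198.2 and 147.9 with DMSO. Libraries of each inhibitor overlapped those of DMSO. Its log2 change was 0.12 (95% interval -0.02 to 0.26; limma adjusted p = 0.163) with UNC1999 and -0.04 (-0.18 to 0.10; limma adjusted p = 0.742) with JQEZ5. A log2 change as low as that of Cd74 lay outside both intervals, on a scale that compresses H2-DMa more at its lower count. H2-DMa shares 360 of its 3448 exon bases with Brd2 on the other strand. Brd2 averaged 4869 normalised counts with UNC1999, 4875 with JQEZ5 and 4972 with DMSO, 0.979 and 0.981 times its DMSO level. Since counting by strand is not given, any part of Brd2 reads in the H2-DMa values, here and below, was not tested. H2-DMb1 had 16 reads in all with UNC1999, 13 with JQEZ5 and 13 with DMSO, and its ratio to DMSO was 1.24 with UNC1999 (95% counting interval 0.561 to 2.81) and 0.881 with JQEZ5 (0.376 to 2.06). A change of that gene was not detectable at this depth.

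In numbers, 2 of the 3 class II genes past the filter on low values were called lower with UNC1999 and none higher, where 47.9% of all 10694 tested genes were called, 23.9% higher and 24% lower. With JQEZ5 the same count was 2 of 3 lower, where 23.6% of tested genes were called, 13.1% higher and 10.5% lower. Calls were thus common over the whole experiment. Of 16 B cell markers, 4 were analysed in this experiment, with summed levels of 14.5 to 17.7 CPM with UNC1999, 13.8 to 15.7 with JQEZ5 and 20.1 to 23.2 with DMSO. Cd79a, Ms4a1 and Pax5 were not analysed here, and none of those analysed was at 0. Of the 3 tested, Cd79b, a chain of the B cell receptor, fell to 0.451 times its DMSO level with UNC1999 and 0.357 times with JQEZ5, Cd22 rose 1.88-fold with UNC1999 and was not called with JQEZ5 (1.51 times), and Bank1 was not called with either. Of 16 dendritic cell markers 8 were analysed, at 119 to 125 CPM in sum with UNC1999, 128 to 134 with JQEZ5 and 178 to 186 with DMSO, and 3 of the 4 tested fell with each compound, Tcf4, Bcl11a and Clec10a. The 13 monocyte and macrophage markers analysed of 16 summed to 12700 to 13300 CPM with UNC1999, 9960 to 10000 with JQEZ5 and 6170 to 6260 with DMSO, and of the 12 tested 11 rose and none fell with UNC1999, while 9 rose and 2 fell with JQEZ5. T and NK cell markers (4 of 12 analysed) summed to 7 to 8.43 CPM with UNC1999, 5.53 to 6.23 with JQEZ5 and 4.2 to 5.23 with DMSO, groups that did not overlap, and basophil and mast cell markers (3 of 10) to 1.21 to 3.2 CPM with UNC1999, 1.68 to 1.86 with JQEZ5 and 1.57 to 1.77 with DMSO. No gene of either list passed the filter. The part of these markers in the fall of Cd74 and H2-Oa was not tested.

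**Figure D2:**
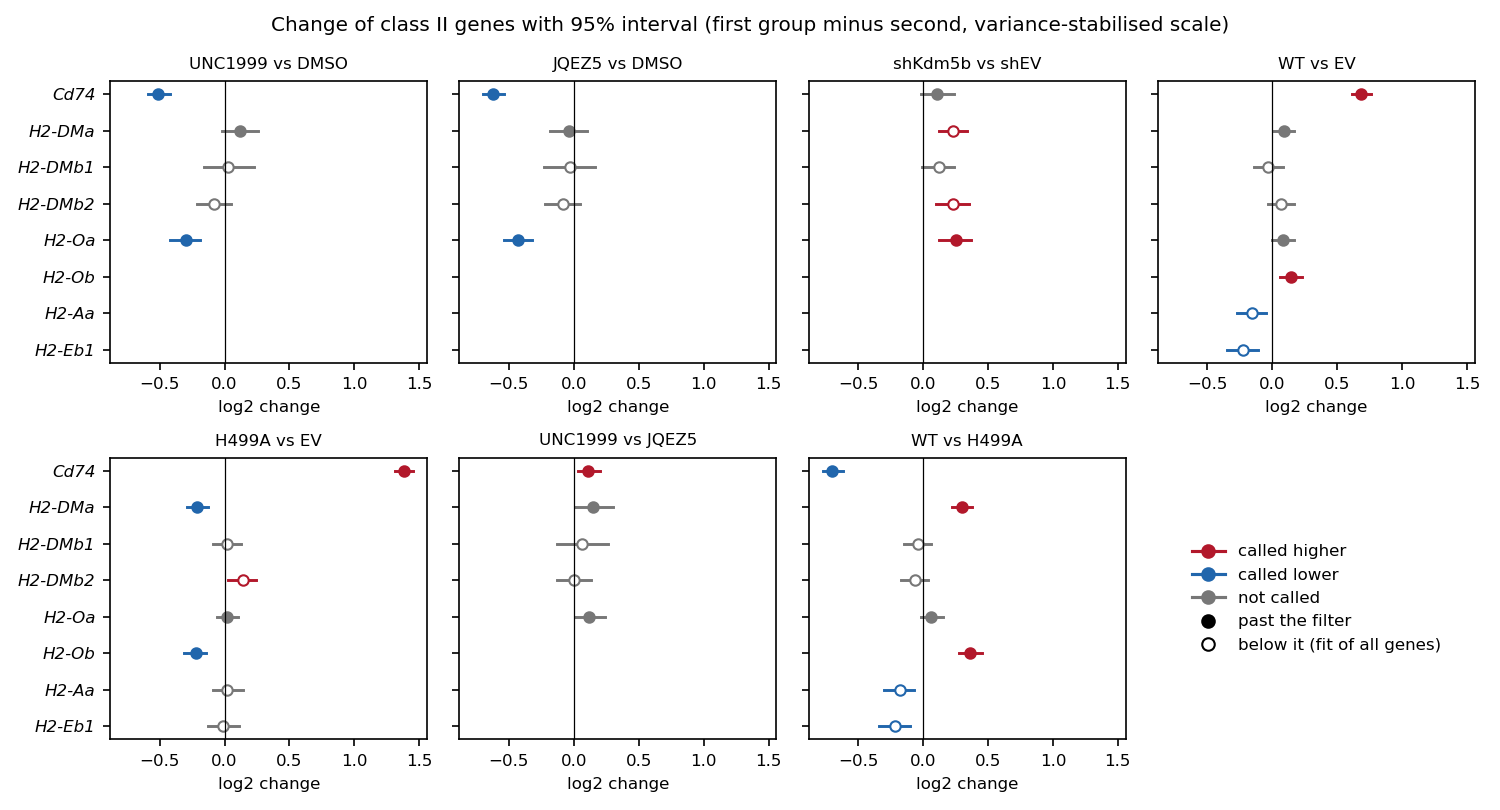
Log2 change on the variance-stabilised scale (x axis, first group minus second) of class II genes, with 95% intervals from limma, in 7 comparisons; red and blue mark genes called higher and lower at an adjusted p under 0.05, grey those not called, and open circles genes below the filter on low values. Cd74 lies at -0.51 and -0.62 with the inhibitors and at 0.68 and 1.38 with WT and H499A.

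Set against each other at the same dose and time, the compounds differed by ratios of 1.11 to 1.23 in the class II genes past the filter. Cd74 was 1.11 times as high with UNC1999 as with JQEZ5 (log2 difference 0.11 ± 0.04, 95% interval 0.03 to 0.20; limma adjusted p = 0.0368), the 1 called of 3 tested, where 36.4% of tested genes were called, 18.7% higher and 17.7% lower. That call rested on single libraries. The limma adjusted p was 0.115 without the second JQEZ5 library, 0.0963 without the third, 0.0767 without the first UNC1999 library, 0.0775 without the second, and 0.0755 when the DMSO libraries were left out of the fit. The interval for H2-Oa ran from 0.01 to 0.24 (ratio 1.16; limma adjusted p = 0.0777) and that for H2-DMa from 0.01 to 0.30 (ratio 1.23; limma adjusted p = 0.0841), so these levels were not shown to be alike. Only 1 pair of compounds was compared.

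For the knockdown, the question was whether class II transcripts move when Kdm5b is reduced. H2-Oa and H2-DMa rose with shKdm5b from a low base, while Cd74 was not called. H2-Oa had 114.3, 95.63 and 87.37 normalised counts in shKdm5b libraries, against 67.72, 54.16 and 50.98 in shEV libraries. The groups did not overlap, and H2-Oa was 1.72 times as high with shKdm5b (log2 change 0.25 ± 0.05; limma adjusted p = 0.00924). H2-DMa had 85.21, 83.29 and 69.62 normalised counts with shKdm5b, against 51.22, 44.01 and 40.59 with shEV. It too was higher in every shKdm5b library, 1.75 times in the mean, with a log2 change of 0.23 ± 0.05 and a limma adjusted p of 0.00878. H2-DMa lay below the filter here, so its values come from a fit of all 15623 genes, and the libraries held 51 to 85 reads of it with shKdm5b and 43 to 59 with shEV. Brd2, which shares exon bases with it, averaged 10230 normalised counts with shKdm5b and 10530 with shEV, 0.972 times its shEV level.

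Cd74 had 121.3, 93.58 and 91.47 normalised counts with shKdm5b, against 93.76, 70.24 and 79.3 with shEV. The first shEV library lay within the range of the shKdm5b libraries. The ratio was 1.26 and the log2 change 0.11 ± 0.06 (95% interval -0.02 to 0.24, limma adjusted p = 0.165), an interval that includes no change. H2-DMb1 had 4, 12 and 8 reads with shKdm5b, against 4, 3 and 5 with shEV, a ratio of 2.51 with a counting interval of 1.21 to 5.51, and limma over all genes did not call it (adjusted p = 0.159). The close copy H2-DMb2, which was not on the list and was looked at as the copy of H2-DMb1 after its values were seen, had 46.57 ± 9.57 normalised counts with shKdm5b and 22.21 ± 4.57 with shEV (n = 3 each, limma over all genes, adjusted p = 0.0165). How reads were shared between these copies is uncertain.

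Of the 2 class II genes past the filter 1 was called, higher, where 32.5% of 10810 tested genes were called, 15% higher and 17.4% lower. That gene, H2-Oa, passed the filter only through its shKdm5b libraries, the group where it was high, so the filter shaped this count. In the fit of all genes the limma adjusted p of H2-Oa was 0.0111. In the fit of all genes, which adds H2-DMa, 23.6% were called and 11.3% were higher. The size of the whole response depended on single libraries, with 3509 genes called over all libraries, 1907 without the first shEV library, 2006 without the second, 2017 without the third, and 5556 without the first shKdm5b library. H2-Oa was called in each of these fits, and H2-DMa, below the filter, in each fit of all genes with the same libraries. Of the 16 B cell markers, 6 were analysed, at 36.4 to 45.8 CPM in sum with shKdm5b and 23 to 27.4 with shEV. Igll1, a surrogate light chain gene of B cell precursors, was 53.2 times its shEV level, Bank1 rose 1.34-fold, Cd79b fell to 0.21 times, and the other of the 4 tested, Blnk, was not called. Dendritic cell markers, 10 of 16, summed to 140 to 165 CPM with shKdm5b and 142 in each shEV library, and Clec10a, Bcl11a and Kmo rose among the 4 tested. Basophil and mast cell markers (3 of 10) summed to 85.9 to 98 CPM with shKdm5b and 2.94 to 3.71 with shEV, mostly through the protease Mcpt8, at 36.7 times its shEV level. T and NK cell markers (2 of 12) summed to 1.56 to 2.16 CPM with shKdm5b and 2.53 to 2.88 with shEV, and 13 of 16 monocyte and macrophage markers summed to 1010 to 1140 CPM with shKdm5b and 1080 to 1110 with shEV. The sums overlapped, while 3 of the 12 tested rose and 8 fell (median log2 change -0.26), with Ly6c2 at 2.48, Cd68 at 0.611, Maf at 0.482 and Adgre1 at 0.545 times the shEV level. The part of these markers in the rise of H2-Oa and H2-DMa was not tested.

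In MLL-AF9 cells, WT and the catalytically dead H499A asked what extra Kdm5b does with and without its demethylase. Cd74 rose with both, and rose more with H499A. It had 637.6 and 675.1 normalised counts in WT libraries, 1332 and 1373 in H499A libraries, and 259.4 and 262.2 in EV libraries. The groups were far apart relative to the spread within them. Cd74 was 2.52 times its EV level with WT (log2 change 0.68 ± 0.04; limma adjusted p = 5.55e-15) and 5.19 times with H499A (1.38 ± 0.04; limma adjusted p = 3.84e-21). Tested directly, WT had 0.485 times the Cd74 level of H499A (log2 difference -0.70 ± 0.04; limma adjusted p = 7.82e-15). Kdm5b was at 1413 ± 4.24 normalised counts with WT and 294 ± 21.4 with H499A (n = 2 each), so the larger rise of Cd74 stood beside the smaller rise of Kdm5b, and dose and catalytic activity cannot be told apart.

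H2-DMa moved otherwise. It had 372.9 and 395 normalised counts with WT, 244.2 and 241.2 with H499A, and 351.1 and 324.8 with EV. The H499A libraries were below both other groups, 28.2% below EV in the mean (log2 change -0.21 ± 0.04; limma adjusted p = 6.71e-05). With WT the log2 change from EV was 0.09 ± 0.04 and was not called (ratio 1.14; limma adjusted p = 0.0507), a value that passed without the trend in the spread (0.0267), with robust settings (0.0488) and without the first EV library (0.0441). WT was 1.58 times H499A for H2-DMa (log2 difference 0.30 ± 0.04; limma adjusted p = 4.01e-07), the opposite order to that of Cd74. Brd2 averaged 6477 normalised counts with WT, 6345 with H499A and 7079 with EV, 0.915 and 0.896 times its EV level.

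H2-Oa was called in none of the 3 comparisons of this experiment. It had 223.7 and 226 normalised counts with WT, 207.1 and 195.9 with H499A, and 203.2 and 184.5 with EV. The log2 change from EV was 0.08 with WT (95% interval 0.00 to 0.17; limma adjusted p = 0.0748) and 0.02 with H499A (-0.06 to 0.10; limma adjusted p = 0.685), and the difference of WT from H499A was 0.06 (-0.02 to 0.15; limma adjusted p = 0.2). Without the trend in the spread the WT change was called (limma adjusted p = 0.0336). Its partner chain H2-Ob, analysed in this experiment and added here because it pairs with H2-Oa, after its values were seen, had 169 ± 4.24 normalised counts with WT, 71.95 ± 1.95 with H499A and 125.4 ± 5.8 with EV (n = 2 each). H2-Ob was 1.35 times its EV level with WT (limma adjusted p = 0.00394) and 0.574 times with H499A (limma adjusted p = 7.29e-05). Its level was 2.35 times as high with WT as with H499A (limma adjusted p = 3.81e-08). It passed the filter only through its WT libraries, the group where it was high, so the filter shaped which tests of it were made. H2-Ob was highest with WT and lowest with H499A, as H2-DMa was. Its RefSeq window holds the motif pair as well, at chr17:34238806-34238864 on the plus strand with a gap of 23 bases.
H2-Ob: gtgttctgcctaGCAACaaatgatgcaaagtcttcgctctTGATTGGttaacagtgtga
H2-DMb2, the copy of H2-DMb1 looked at above, had another order, with 54.06 ± 11.1 normalised counts with WT, 66.11 ± 10.3 with H499A and 41.84 ± 3.39 with EV (n = 2 each). In limma over all genes it was called higher with H499A than with EV (adjusted p = 0.0338), and neither WT against EV (adjusted p = 0.237) nor WT against H499A (adjusted p = 0.305) was called. Its RefSeq window holds TGATTGG but not the pair.

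The classical chains were few in reads and lowest with WT. H2-Aa, the I-A alpha chain, had 3 and 1 reads in WT libraries, 19 and 9 in H499A libraries, and 12 and 9 in EV libraries. H2-Eb1, the I-E beta chain, had 1 and 0 reads with WT, 9 and 11 with H499A, and 6 and 15 with EV. Both WT libraries were below every other library for either gene. In the fit of all 13949 genes H2-Aa was called lower with WT than with EV (limma adjusted p = 0.0198) and than with H499A (0.0102), and so was H2-Eb1 (limma adjusted p = 0.00321 and 0.00577). The ratio of WT to EV was 0.188 for H2-Aa, with a counting interval of 0.0468 to 0.556, and 0.0469 for H2-Eb1, with an interval of 0.00113 to 0.292. These calls depended on single libraries. For H2-Aa, WT against EV had a limma adjusted p of 0.095 without the first EV library, 0.0539 without the second and 0.128 without the second WT library, and for H2-Eb1 it was 0.0576 without the second EV library. Against H499A, the limma adjusted p of H2-Aa was 0.12 without the first H499A library and 0.078 without the second WT library, and that of H2-Eb1 was 0.0573 without the second H499A library and 0.0568 without the second WT library. Between H499A and EV neither was called (limma adjusted p = 0.747 for H2-Aa and 0.881 for H2-Eb1), and H2-DMb1, at 4 to 12 reads per library, was called in none of the 3 comparisons.

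With WT, 1 of 3 class II genes past the filter was called, higher, where 62.2% of 9458 tested genes were called, 29.8% higher and 32.4% lower. In the fit of all genes 48.1% were called and 23.8% were lower, among them H2-Aa and H2-Eb1. With H499A, 1 of 3 was higher and 1 lower, where 49.6% of tested genes were called, 22.7% higher and 26.9% lower. Between WT and H499A, 1 was higher and 1 lower, where 54.4% of tested genes were called, 28.2% higher and 26.3% lower, and in the fit of all genes 41.6% were called and 20.9% were lower. With calls this common, the sizes above separate the genes more than the calls do. The 5 of 16 B cell markers analysed here summed to 15.1 to 16.5 CPM with WT, 41.6 to 42.6 with H499A and 19.6 to 19.8 with EV, and Cd79b was at 0.718 times its EV level with WT and 2.08 times with H499A. Dendritic cell markers, 9 of 16, summed to 278 to 285 CPM with WT, 309 to 313 with H499A and 337 to 347 with EV, and of the 6 tested 2 rose and 3 fell with WT and likewise 2 rose and 3 fell with H499A. Flt3, a growth factor receptor of their progenitors, was at 0.344 and 0.522 times its EV level with WT and H499A, Bcl11a at 0.701 and 0.767 times, and the chemokine receptor gene Ccr7 at 2.52 and 2.79 times. Monocyte and macrophage markers, 13 of 16, summed to 2830 to 2930 CPM with WT, 1900 with H499A and 931 to 984 with EV, and of the 10 tested 9 rose and 1 fell with WT and 9 rose and none fell with H499A. T and NK cell markers (4 of 12) summed to 9.1 to 9.82 CPM with WT, 17.6 to 18 with H499A and 27.7 to 29.8 with EV, and basophil and mast cell markers (4 of 10) to 55 to 57.9, 61.6 to 64.3 and 95 to 95.8 CPM in the same order. None of the markers analysed was at 0 in a whole group, and their part in the changes of Cd74, H2-DMa, H2-Aa and H2-Eb1 was not tested.

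Relative to each other, the class II genes did not move as a block. Per kilobase of exon, Cd74 was 2.39 to 2.5 times H2-Oa in WT libraries, 5.39 to 5.87 times in H499A libraries and 1.07 to 1.19 times in EV libraries. Against H2-DMa it was 3.51 times in each WT library, 11.2 to 11.7 times in H499A libraries and 1.52 to 1.66 times in EV libraries. With the inhibitors Cd74 was 5.28 to 6.76 times H2-DMa in UNC1999 libraries and 6.18 to 7.55 times in JQEZ5 libraries, against 9.64 to 12.4 times in DMSO libraries. Cd74 over H2-Oa was 1.75 to 1.87 with UNC1999, 1.69 to 2.06 with JQEZ5 and 1.95 to 2.19 with DMSO, and with the knockdown 0.82 to 0.889 in shKdm5b libraries, against 1.09 to 1.3 in shEV libraries. Cd74 was therefore below H2-Oa per kilobase in shKdm5b libraries and above it in every other library. These ratios divide by the bases of all annotated exons, 1679 for Cd74 and 1407 for H2-Oa. An order between genes thus depends on those lengths, which need not be those of the transcripts present. In reads, the shKdm5b libraries held 121, 91 and 67 of Cd74 against 114, 93 and 64 of H2-Oa.

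Enzymes, adaptors and other genes of class II preparation, with further class II chains such as H2-Ob and H2-DMb2, formed a list of 20 genes beside the members. For this list and the 4 that follow, the shares called are to be read against those of all tested genes, 47.9% with UNC1999, 23.6% with JQEZ5, 32.5% with shKdm5b, 62.2% with WT and 49.6% with H499A. Here 50%, 50%, 30%, 83.3% and 75% of the tested genes were called in the same order. With UNC1999, 6 of the 12 tested rose and none fell, with a median log2 change of 0.33 beside -0.01 over all tested genes. Ctss, the cathepsin that makes the last cuts in the invariant chain, was at 4619 ± 115 normalised counts with UNC1999, 2802 ± 68.9 with JQEZ5 and 1618 ± 15.5 with DMSO (n = 3 each). Ctsb rose 2.32-fold, Ctsl 2.38-fold and Ctsd 1.88-fold with UNC1999, all lysosomal cathepsins. With JQEZ5 again 6 of 12 rose and none fell (median 0.13 beside 0.01), with Ctsl 1.8-fold, Ctsb 1.59-fold, Ctsd 1.46-fold and Ctss 1.73-fold. Ctss was thus higher in the same libraries in which Cd74, whose product it cuts, was lower.

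In the overexpression, 7 of the 12 tested genes of this list rose and 3 fell with WT (median 0.13 beside -0.01), and 7 rose and 2 fell with H499A (median 0.07 beside -0.01). H2-Ob, described above, is among those that rose with WT and among those that fell with H499A. Ctss was at 2236 ± 98.3 normalised counts with WT, 1527 ± 29.7 with H499A and 663.8 ± 30.8 with EV (n = 2 each). Ctsb was 2.11 and 1.81 times its EV level with WT and H499A, Ctsd 1.41 and 1.21 times, and the asparaginyl protease Lgmn 2.44 and 1.52 times. For these 4 proteases the level with WT was also above that with H499A. The limma adjusted p was 2.91e-11 for Ctss, 2.81e-08 for Ctsb, 1.4e-07 for Ctsd and 1.7e-08 for Lgmn. Cd74 had the reverse order between WT and H499A, and was above EV with both as these proteases were. With shKdm5b, none of the 10 tested rose and 3 fell (median -0.09 beside -0.01): Ctsd to 0.784, Ctsb to 0.809 and the clathrin adaptor subunit Ap1b1 to 0.85 times the shEV level.

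**Figure D3:**
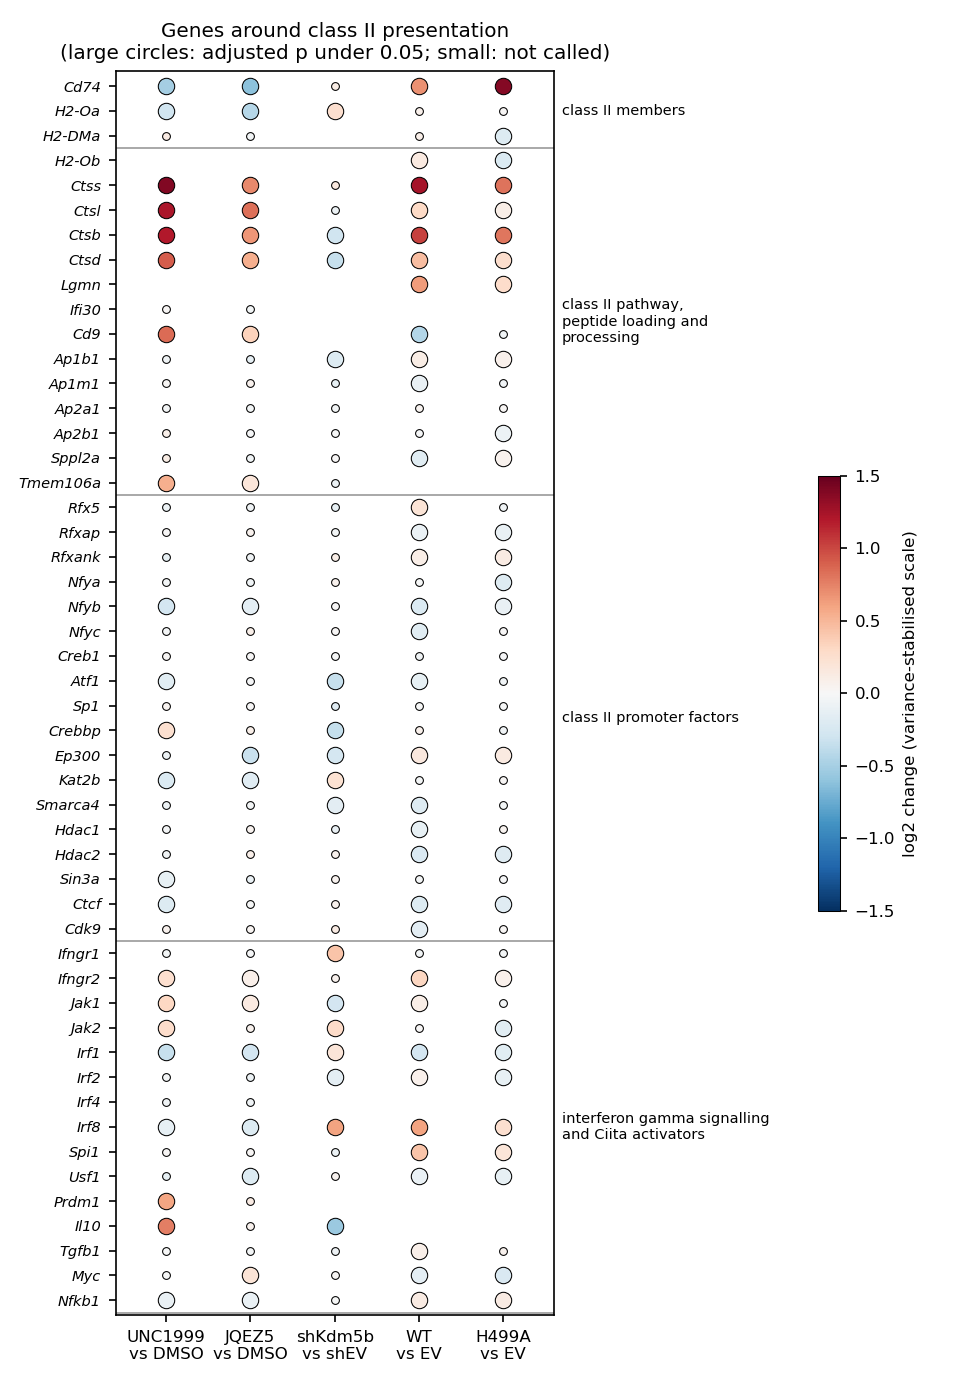
Log2 change on the variance-stabilised scale (colour, red higher and blue lower) of 3 class II genes and of 3 lists of genes around them, past the filter on low values, in 5 comparisons with the vehicle or vector, with 1 tested gene of the last list not drawn; large circles are called at an adjusted p under 0.05 and blank positions are genes not tested. Ctss, Ctsb and Ctsd rise in both inhibitor columns and in both overexpression columns, while Cd74 is lower in the first pair and higher in the second.

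Ciita itself was not analysed, but the factors it works with were. Of 18 promoter factors, all tested, 1 rose and 5 fell with UNC1999 and none rose and 3 fell with JQEZ5. Nfyb, a subunit of the Y box factor NF-Y, fell to 0.761 and 0.86 times its DMSO level with UNC1999 and JQEZ5, and the acetyltransferase Kat2b to 0.808 and 0.844 times. Ep300, another acetyltransferase, fell to 0.777 times with JQEZ5. With shKdm5b 1 rose, Kat2b at 1.25 times its shEV level, and 4 fell, among them Crebbp to 0.733, Atf1 to 0.744 and Ep300 to 0.819 times. With WT 3 rose and 9 fell, and with H499A 2 rose and 5 fell, with Ep300 at 1.14 and 1.11 times, Hdac2 at 0.826 and 0.857 times and Ctcf at 0.849 and 0.868 times the EV level. The median log2 change of the list was between -0.08 and 0.00 in these 5 comparisons. In the order used above, 33.3%, 16.7%, 27.8%, 66.7% and 38.9% of the list were called, below the share of all tested genes in each comparison but that of WT. Rfx5, the X box factor, was 1.35 times as high with WT as with H499A (limma adjusted p = 3.04e-06), where Cd74 was lower.

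Genes of interferon gamma signalling and of the control of Ciita, activators and repressors together, 18 in all, moved in both directions. With UNC1999, 5 of 16 tested rose and 3 fell, led by Il10 (9.4-fold), the repressor Prdm1 (3.15-fold), the kinase Jak1 (1.25-fold) and the receptor chain Ifngr2 (1.2-fold). With JQEZ5, 3 of 16 rose and 4 fell, with Myc at 1.16, the transcription factor Irf8 at 0.861, Jak1 at 1.1 and Usf1 at 0.846 times the DMSO level. With shKdm5b, 4 of 14 rose and 3 fell, with Irf8 at 1.56, the receptor chain Ifngr1 at 1.36, Jak1 at 0.818 and Il10 at 0.352 times the shEV level. With WT, 8 of 13 rose and 3 fell, with Irf8 at 1.6, the myeloid factor Spi1 at 1.4, Ifngr2 at 1.36 and Irf1 at 0.73 times the EV level. With H499A, 5 rose and 5 fell, with Irf8 at 1.22, Spi1 at 1.16 and Myc at 0.834 times. The shares called were 50% with UNC1999, 43.8% with JQEZ5, 50% with shKdm5b, 84.6% with WT and 76.9% with H499A. Between WT and H499A, Irf8 and Spi1 had the reverse of the order of Cd74, at 1.32 and 1.21 times with WT relative to H499A. Both were above EV with WT and with H499A, as Cd74 was.

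Genes outside class II that answer to interferon gamma, 18 in all, showed no common direction with the inhibitors. With UNC1999, 2 of 13 tested rose and 2 fell, the guanylate-binding protein gene Gbp6 (4.2-fold) and B2m (1.08-fold) against Gbp3 (0.658 times) and the chemokine Cxcl10 (0.617 times). With JQEZ5, Gbp6 rose 2.64-fold and Cxcl10 fell to 0.695 times its DMSO level, and the other 11 were not called. With shKdm5b, 6 of 12 rose and 1 fell (median 0.18 beside -0.01), led by Cxcl10 (1.87-fold), Gbp2 (2.49-fold), Gbp7 (1.8-fold) and the GTPase gene Irgm2 (1.62-fold). H2-Oa and H2-DMa rose in the same experiment and Cd74 was not called, and a link between these lists was not tested. With WT, 1 of 10 rose and 5 fell, B2m at 1.13, the immunoproteasome subunit Psmb8 at 0.799, Gbp7 at 0.589 and the peptide transporter Tap1 at 0.837 times the EV level. With H499A, 4 rose and 5 fell, with Cxcl10 at 3.59, Psmb8 at 0.767, Tap1 at 0.793 and Gbp3 at 0.753 times. Of the tested genes, 30.8% were called with UNC1999, 15.4% with JQEZ5, 58.3% with shKdm5b, 60% with WT and 90% with H499A. Cxcl10 was at 0.369 times with WT relative to H499A (limma adjusted p = 4.18e-09).

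Co-stimulatory and inhibitory ligands, which a T cell reads beside class II, numbered 12. With UNC1999, 4 of 8 tested rose and 2 fell, with the inhibitory ligand Cd274 at 1.93, the adhesion molecules Cd48 and Icam1 at 3.51 and 1.61, and the checkpoint molecule Vsir at 0.85 times the DMSO level. With JQEZ5, Cd274 rose 1.36-fold, and Vsir and Icosl fell to 0.789 and 0.826 times. With shKdm5b, 2 of 6 rose and none fell, Icosl (1.41-fold) and Lgals9 (1.16-fold). With WT, 3 of 6 rose and 2 fell, with Vsir at 1.92, Cd274 at 1.62, Lgals9 at 0.641 and Cd48 at 0.536 times the EV level. With H499A, 4 rose and 2 fell, with Vsir at 2.07, Cd274 at 2.11, Icosl at 1.78 and Cd48 at 0.22 times. With 6 to 8 genes tested, the shares called were 75%, 37.5%, 33.3%, 83.3% and 100% for UNC1999, JQEZ5, shKdm5b, WT and H499A.

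The genes whose values were most like those of Cd74 were sought among the 8416 genes tested in every experiment, by the Pearson r with Cd74 over the libraries of each experiment, averaged over the 3. Since libraries of a group share their treatment, these are descriptions. Tmem63a, an ion channel gene, had a mean r of 0.93, Pygl, the liver form of glycogen phosphorylase, 0.93, P4hb, protein disulphide isomerase, 0.91, Lbp, the lipopolysaccharide-binding protein, 0.91, and Bmf, a Bcl2 family death gene, 0.89. Of the other members only H2-Oa was tested in every experiment, so it alone could be ranked. It came 135th, with r at 0.96 over 9 inhibitor libraries, 0.89 over 6 knockdown libraries and 0.21 over 6 overexpression libraries. By Spearman's rho 2 of these 5 genes, P4hb and Pygl, stayed among the first 5, joined by Tmem154, Ergic3 and Vsir.

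The changes of these genes were smaller than those of Cd74 in most comparisons. Lbp fell to 0.607 and 0.61 times its DMSO level with UNC1999 and JQEZ5, close to Cd74 at 0.637 and 0.573 times, and was 1.36 and 1.98 times its EV level with WT and H499A. Bmf was at 0.743 and 0.684 times with the inhibitors and at 2.07 and 2.38 times with WT and H499A. Pygl was at 0.884 and 0.864 times with the inhibitors and at 1.26 and 1.88 times with WT and H499A. With shKdm5b, Lbp rose 1.53-fold, Bmf 2.01-fold and Pygl 1.44-fold, while Tmem63a and P4hb, like Cd74, were not called (limma adjusted p of 0.0656, 0.169 and 0.165).

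**Figure D4:**
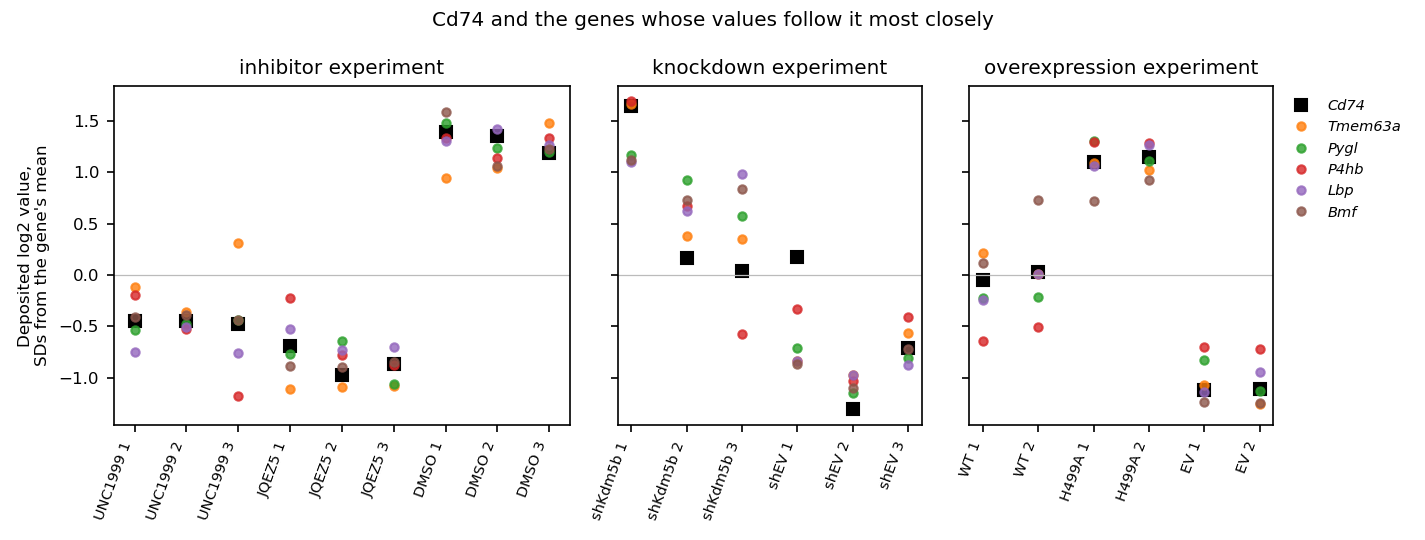
Deposited log2 value of Cd74 (black squares) and of the 5 genes most like it (circles), in SDs from the mean of each gene over the libraries of an experiment (y axis), for each library (x axis). All 6 genes lie above their mean in the 3 DMSO libraries and the 2 H499A libraries and below it in the 2 EV libraries.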

How the data were processed

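The authors deposited 1 table per experiment with log2 values after a variance-stabilising transformation. The submitters' processing notes name STAR 2.4.2, Salmon 0.1.19, DESeq2 1.38.2 and the build GRCm38.p4 (mm10), without their roles. The transformation was undone in closed form from the lowest value of each table (6.88278, 7.43603 and 8.18232 for inhibitor, knockdown and overexpression). At a tolerance of 0.05, 100% of the results were whole multiples of the step of their library, from which reads, depth, normalised counts and CPM follow. The lowest values belong to genes with no reads, and the scale is compressed near them.

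Columns were matched to samples by name, and 0 columns were left unused. Of 14178, 15623 and 13949 genes, 10694, 10810 and 9458 were tested. They passed a filter 1 log2 unit over the lowest value (59, 86.6 and 145 normalised counts) in at least the number of libraries of the smallest group. In R 4.3.3, limma 3.58.1 fitted a mean for every group of a table, with a trend in the prior spread, and p-values were adjusted over the tested genes of the table. Class II genes below the filter were taken from a fit of all genes and named so. The fit was tested on simulated data. Over 18 pairs of replicates the Pearson r was 0.9929 to 0.9990 and the chi-square of their reads, per degree of freedom, 1.5 to 18.3, so none was counted as a duplicate.

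The settings varied were the filter (none, or 2 log2 units), the scaling (centred medians, or quantiles), the prior spread (no trend, or robust), the replicate block, the groups in the fit, single libraries left out, and voom with limma on the recovered reads. Exon lengths, positions and overlaps came from GENCODE M21. Counting intervals of ratios are exact and conditional on the total, at 95%. Named genes are the 8 class II genes, Kdm5b, Ezh2, up to 4 called genes of each list with the lowest adjusted p in a comparison, and the 5 genes with the highest mean r with Cd74, predicted genes left out. Some genes of the lists count in their list but are not reported here by name. The class II genes, the lists and the tests were chosen with earlier results of these data known.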

Additional observations from a re-analysis of the deposited data

How the results depend on the processing

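Of 431 values of class II genes under the alternatives, 397 kept their direction and their side of the threshold, 14 lost a call, 6 gained one and 14 changed sign, none of them called in the report or in the alternative. Under quantile scaling H2-DMb1 came to -0.02 and H2-Aa to -0.01 with H499A against EV. The other 12 arose when single libraries were left out, where H2-DMb1 ran from -0.03 to 0.09 with UNC1999, -0.11 to 0.02 with JQEZ5, -0.07 to 0.01 with WT and -0.01 to 0.05 with H499A, H2-DMa from -0.09 to 0.02 with JQEZ5, and, with H499A against EV, H2-Oa from 0.00 to 0.05, H2-Aa from -0.03 to 0.08 and H2-Eb1 from -0.08 to 0.05. Cd74 and H2-Oa with either inhibitor, H2-Oa and H2-DMa with shKdm5b, Cd74 with WT against EV, and Cd74 and H2-DMa with H499A against EV and WT against H499A kept their calls under every alternative in which they were tested. The fits on recovered reads gave the same calls on a scale without compression, with log2 changes of 2.37 and 1.33 for Cd74 with H499A and WT against EV, -1.04 for WT against H499A, 0.79 for H2-Oa and 0.82 for H2-DMa with shKdm5b, -0.48 and 0.66 for H2-DMa with H499A against EV and WT against H499A, and -2.29 and -3.55 for H2-Aa and H2-Eb1 with WT. The cause of the changes below was not tested, beyond what fewer or more genes, or fewer libraries, in a fit bring.

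The count of class II genes called between UNC1999 and JQEZ5, 1 in the report, was 0 with the replicate block and 0 with only those groups in the fit, and 0 to 1 when single libraries were left out. With shKdm5b it was 0 at the filter of 2 log2 units, which no class II gene passed there, and 2 with no filter, which adds H2-DMa. With WT against EV it was 3 without the trend, 2 with robust settings and 1 to 2 when single libraries were left out. No filter gave 3 there, adding H2-Aa and H2-Eb1. At the filter of 2 log2 units it was 1 for H499A against EV and 1 for WT against H499A. Of the class II genes only Cd74 was still tested there. With no filter it was 4 for WT against H499A, again adding H2-Aa and H2-Eb1. The number of genes called with shKdm5b ran from 1907 to 5556 when single libraries were left out. Without the third JQEZ5 library H2-Oa was called in place of Cd74 between the inhibitors (limma adjusted p = 0.0324), and without the first shKdm5b library H2-DMb1 was called (0.0307).

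Same-numbered libraries correlated in their deviations at -0.081 to 0.16, -0.15 to 0.223 and -0.0542 to -0.0112 in the inhibitor, knockdown and overexpression experiments. Differently numbered libraries correlated at -0.19 to 0.178, -0.164 to 0.259 and 0.0112 to 0.0542 in the same order, so the numbers were not taken to pair them. With 2 libraries per group the overexpression ranges mirror each other and hold the same information. With the replicate block the calls came to 5028, 2382, 3775, 3491, 5955, 4769 and 5238 genes, against 5118, 2529, 3892, 3509, 5881, 4689 and 5146 without it, and 1 class II call was lost, Cd74 between the inhibitors (limma adjusted p = 0.0527). Depth limits H2-DMb1, H2-Aa and H2-Eb1, at 0 to 19 reads per library. The choice of Spearman's rho kept 2 of the 5 genes most like Cd74.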
